A study of Mus musculus with 39 samples.

Results

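Among 15 wildtype mice fed a Western diet, 5 livers held high levels of metallothionein 1 (Mt1) RNA together with high levels of acute phase transcripts, and these 5 livers are described here against the other 10. The 5 livers were chosen by their measured Mt1: the raw count was divided by the library total and given as counts per 1000000 (CPM), and a liver was called high when Mt1 was over 100 CPM. The 15 livers belong to a series of 39 mouse liver RNA libraries, labelled as 1 per mouse. All mice were males, CD163 knockouts (CD163KO) or wildtype littermates (CD163WT), bred from heterozygous C57BL/6NTac (CD163tm1(KOMP)Vlcg) parents. From 6 weeks of age they ate chow with normal drinking water (5 CD163WT and 4 CD163KO mice) or Western diet with fructose in the water (15 mice of each genotype), for 8 weeks. The 24 libraries outside the wildtype Western diet group took no part in the choice and serve below as separate livers. Livers are named by the replicate letters of their labels, so the high livers are F, G, L, M and N, and the low livers are A, B, C, D, E, H, I, J, K and O.

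The acute phase response is the change in protein output of the liver during inflammation. Interleukin 6 (IL-6) acts through STAT3, and interleukin 1 (IL-1) and tumour necrosis factor (TNF) through NF-kB, and together they make hepatocytes secrete serum amyloid A, haptoglobin, orosomucoid and complement. Metallothioneins are small proteins that bind zinc and copper, and metals, glucocorticoids and IL-6 are known to raise their transcription in liver. Kupffer cells are the resident macrophages of the liver, and CD163 is the macrophage receptor that clears haemoglobin bound to haptoglobin.

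Mt1 was at 129.6 CPM in F, 288.8 in G, 146.2 in L, 154.3 in M and 157.6 in N. In the 10 low livers it ran from 2.697 CPM over a median of 8.14 to 41.6 CPM. The liver nearest to the dividing level from above was F, and the nearest from below was O, with 41.6 CPM. Since Mt1 chose the groups, these values are a description with no test. Of the 15 knockout Western diet livers, 0 were over 100 CPM, and the highest was E at 81.9 CPM. Of the 9 chow livers, 0 were over 100 CPM, and the highest were wildtype chow E at 97.2 CPM and wildtype chow A at 42.1 CPM.

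**Figure D1:**
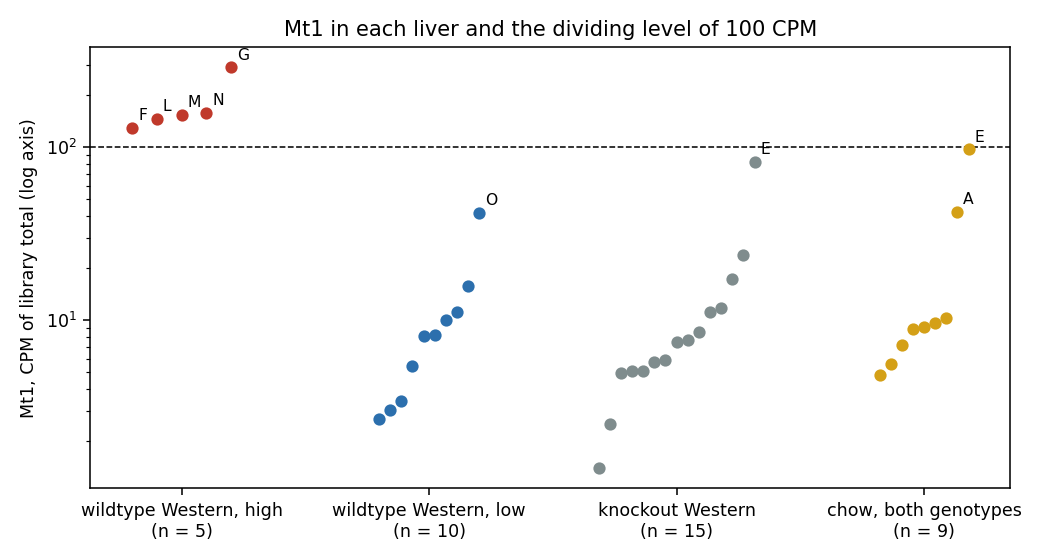
Mt1 in each of the 39 livers, as CPM of the library total on a log axis, with the dividing level of 100 CPM as a dashed line. Points are livers, ordered by level within a group, and letters name the livers with the most Mt1. The 5 high livers lie between 129.6 and 288.8 CPM, and the highest of the low livers, O, is at 41.6 CPM.

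Library totals were 12661615 to 16843296 counts in the high livers and 11021915 to 18909180 in the low livers. High livers L and M were near copies of each other: their counts differed with a chi-square per gene of 3.70, where 1 is sampling noise, against 11.2 for the next closest of 105 pairs and a median of 51.1. The labels give them as separate mice, and whether they come from the same mouse was not tested. They are kept as 2 livers, and the main counts are also given with both summed to 1 library. Every SE and p-value with both kept treats them as separate mice. In 4 libraries the level of Hmgcs1, an enzyme of cholesterol synthesis, was like that of the other diet: low liver A had 699 CPM against at most 352 CPM in the other low livers, knockout Western diet M had 789 CPM, and wildtype chow A and knockout chow D had 167 and 175 CPM. The library numbers of the high livers form 2 runs of neighbours, F and G, and L, M and N. The labels do not say what the number stands for. Hepatocyte transcripts were abundant in all 15 livers, with Alb (albumin) at 20042 to 48142 CPM and Apoa1 (apolipoprotein A-I) at 7578 to 13453 CPM.

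The promoters of Mt1 and of 3 genes that were higher with it are shown because they hold motifs of the metal response, of STAT factors, of NF-kB or of the C/EBP factors of the acute phase. A match of letters does not show binding. They are printed 5′ to 3′ on the gene's strand, from 250 bases before to 30 bases after the start in RefSeq (build GRCm38.p6): Mt1 at chr8:94178839-94179118 (plus strand), Mt2 at chr8:94172368-94172647 (plus), Saa3 at chr7:46715647-46715926 (minus) and Nfkb2 at chr19:46304487-46304766 (plus, the first of 3 starts in the table). Capitals mark the metal response element (TGCACNC or TGCGCNC), the C/EBP motif (TTNNGNAA), the STAT motif (TTCNNNGAA) and the NF-kB consensus, each searched on both strands.
Mt1: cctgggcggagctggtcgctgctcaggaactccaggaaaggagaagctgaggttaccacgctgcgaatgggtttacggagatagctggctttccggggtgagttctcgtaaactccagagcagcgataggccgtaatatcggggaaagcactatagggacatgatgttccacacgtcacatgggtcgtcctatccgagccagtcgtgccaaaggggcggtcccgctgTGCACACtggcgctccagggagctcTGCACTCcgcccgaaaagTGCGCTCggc
Mt2: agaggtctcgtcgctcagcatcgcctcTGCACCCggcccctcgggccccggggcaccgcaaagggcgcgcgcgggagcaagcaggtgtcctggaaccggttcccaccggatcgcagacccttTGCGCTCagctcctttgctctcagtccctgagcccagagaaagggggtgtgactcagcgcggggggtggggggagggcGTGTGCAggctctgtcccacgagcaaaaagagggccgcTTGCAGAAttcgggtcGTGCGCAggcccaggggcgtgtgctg
Saa3: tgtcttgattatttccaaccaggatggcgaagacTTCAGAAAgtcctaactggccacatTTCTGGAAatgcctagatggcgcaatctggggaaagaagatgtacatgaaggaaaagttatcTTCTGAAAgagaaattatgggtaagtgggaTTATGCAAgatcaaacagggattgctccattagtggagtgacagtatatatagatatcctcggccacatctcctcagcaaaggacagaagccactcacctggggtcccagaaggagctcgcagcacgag
Nfkb2: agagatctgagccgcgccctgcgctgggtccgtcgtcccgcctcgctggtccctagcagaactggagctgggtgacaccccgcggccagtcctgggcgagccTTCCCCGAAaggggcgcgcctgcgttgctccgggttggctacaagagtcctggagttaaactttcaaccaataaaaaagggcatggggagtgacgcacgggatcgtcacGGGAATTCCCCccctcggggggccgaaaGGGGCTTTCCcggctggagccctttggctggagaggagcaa
The capitals in Mt1 are 3 metal response elements, and those in Mt2 are 4 metal response elements and 1 C/EBP motif. In Saa3 they are 4 C/EBP motifs, and in Nfkb2 they are 1 STAT motif and 2 places with the NF-kB consensus. Over the 32851 promoters of the table, 24.1% held a metal response element of either form, 39.3% a C/EBP motif, 7.83% a STAT motif and 4.22% an NF-kB consensus. Among the 489 promoters of genes that were higher in the high livers, these shares were 29.4%, 37.4%, 9.61% and 10.4%. Among the 13519 promoters of all tested genes they were 32.5%, 31.7%, 6.67% and 4.89%. The shares are descriptions of these windows.

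The first comparison asks which other genes were high or low in the livers with high Mt1. Saa1, Saa2, Lcn2, Orm2 and Mt2 had log2 fold changes of 4.23 to 5.28. Genes of IL-1, TNF and NF-kB signalling, chemokines, Kupffer cells and endoplasmic reticulum (ER) chaperones were higher. Genes of cholesterol and fatty acid synthesis mostly had negative fold changes, with few called lower, such as Hmgcs1 and Elovl5. By edgeR's quasi-likelihood test, at a Benjamini-Hochberg adjusted p under 0.05, 520 of 14360 tested genes (3.62%) were higher and 267 (1.86%) were lower in the high livers. The groups were formed from these same libraries with earlier results known, so the calls are no independent evidence. A call says that a gene went with Mt1 across these 15 libraries. All 5 high livers lay above all 10 low livers in 145 tested genes (1.01%) and below all of them in 73 (0.508%). With L and M summed to 1 library, 262 genes were higher and 82 lower, of which 258 and 82 were called with both kept. Without L and M, 137 were higher and 10 lower. The counts also moved by more than 1.5 times without G (195 higher, 62 lower), without L (268 and 72) and without M (260 and 82), and the count of lower genes without B (151) or K (163), and, upward, without F. Fold changes below are log2 values, high against low livers, with the SE implied by the F statistic of edgeR. CPM values of genes other than Mt1 use library totals scaled by TMM factors.

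Mt2, the second hepatic metallothionein, was at 37.2 CPM in F, 57.5 in G, 64.3 in L, 53.5 in M and 19.9 in N. In the low livers it ran from 0.151 over 1.00 to 5.48 CPM, the highest again in O, so the groups did not overlap (log2 fold change 5.11, SE 0.49). Of 12 tested genes of metallothionein and zinc handling, 3 were higher and 0 lower, with a median log2 fold change of 0.15 against -0.01 over all tested genes. The other 2 were the zinc importer Slc39a14, which also takes up iron, at 330 to 414.6 CPM against 143 to 288 CPM (0.84, SE 0.13), and the zinc exporter of the secretory pathway Slc30a5, at 55.2 to 76.6 against 33.3 to 52.8 CPM (0.68, SE 0.11). Gm45774, a predicted gene that overlaps Mt2 on the opposite strand in the GRCm38 annotation, was at 6.27 to 65.1 CPM against 0 to 2.07 CPM. The strand setting of the counting is not given in the sources used here, so reads of Mt2 and Gm45774 cannot be told apart.

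The acute phase genes rose nearly as a whole: 28 of 29 tested members of a list of 30 were higher and 0 were lower, with a median log2 fold change of 1.27. The remaining tested member, Serpina3m, was at 161 to 263 CPM against 97.2 to 213 CPM. All 5 high livers were above all 10 low livers in 19 of the 29, beside 1.01% of all tested genes. Summed over the 30 genes, acute phase RNA made up 55637 CPM in F, 97572 in G, 68142 in L, 67115 in M and 43102 in N. The low livers held 22965 to 36556 CPM with a median of 27046 CPM. G was the highest of the 5 high livers in 21 of the 29 tested genes, L in 5, M in 2 and F in 1, and N in 0. With L and M summed 24 members were called, and without L and M 19.

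Serum amyloid A proteins are carried on high-density lipoprotein in inflammation. Saa1 was at 2082 CPM in F, 9306 in G, 2264 in L, 2697 in M and 2457 in N, and at 34.1 to 516 CPM with a median of 73.6 CPM in the low livers (log2 fold change 4.44, SE 0.70). The low livers with the next highest Saa1 stayed below every high liver. Saa2 was at 1245, 9129, 1976, 2334 and 1896 CPM in F, G, L, M and N, against 15.2 to 281 CPM (5.28, SE 0.80). Saa1 and Saa2 are near-identical copies, so the split of reads between them is uncertain. Saa3, which macrophages and other cells express as well, was at 53.0, 104, 36.6, 41.3 and 89.1 CPM against 1.89 to 7.07 CPM (3.83, SE 0.29), with G and N highest. Saa4 had a smaller difference, 841 to 1428 CPM against 207 to 506 CPM (1.86, SE 0.19).

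Lcn2, which encodes the iron-siderophore binding protein lipocalin 2, was at 164, 740, 263, 249 and 102 CPM in F, G, L, M and N against 2.06 to 37.8 CPM (4.39, SE 0.66). The orosomucoids, serum glycoproteins that bind drugs and lipids, differed unevenly. Orm2 was at 46.9, 788, 146, 172 and 36.6 CPM against 5.44 to 22.5 CPM (4.23, SE 0.61), with G far above the other 4. Orm1 was at 781 to 2296 CPM against 279 to 609 CPM (1.37, SE 0.22). Hp, which encodes haptoglobin, the plasma carrier of free haemoglobin and part of the ligand of CD163, was at 8083, 15240, 9506, 9751 and 7871 CPM against 2334 to 6148 CPM (1.49, SE 0.21). Lbp, which encodes the lipopolysaccharide binding protein, was at 197, 394, 334, 314 and 262 CPM against 53.1 to 120 CPM (1.84, SE 0.17), and C3, the central complement protein, at 4063 to 6917 against 2187 to 3975 CPM (0.98, SE 0.13). Serpina3n, a protease inhibitor, was at 784, 963, 783, 761 and 362 CPM against 177 to 395 CPM (1.28, SE 0.19), and here N lay within the low range.

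**Figure D2:**
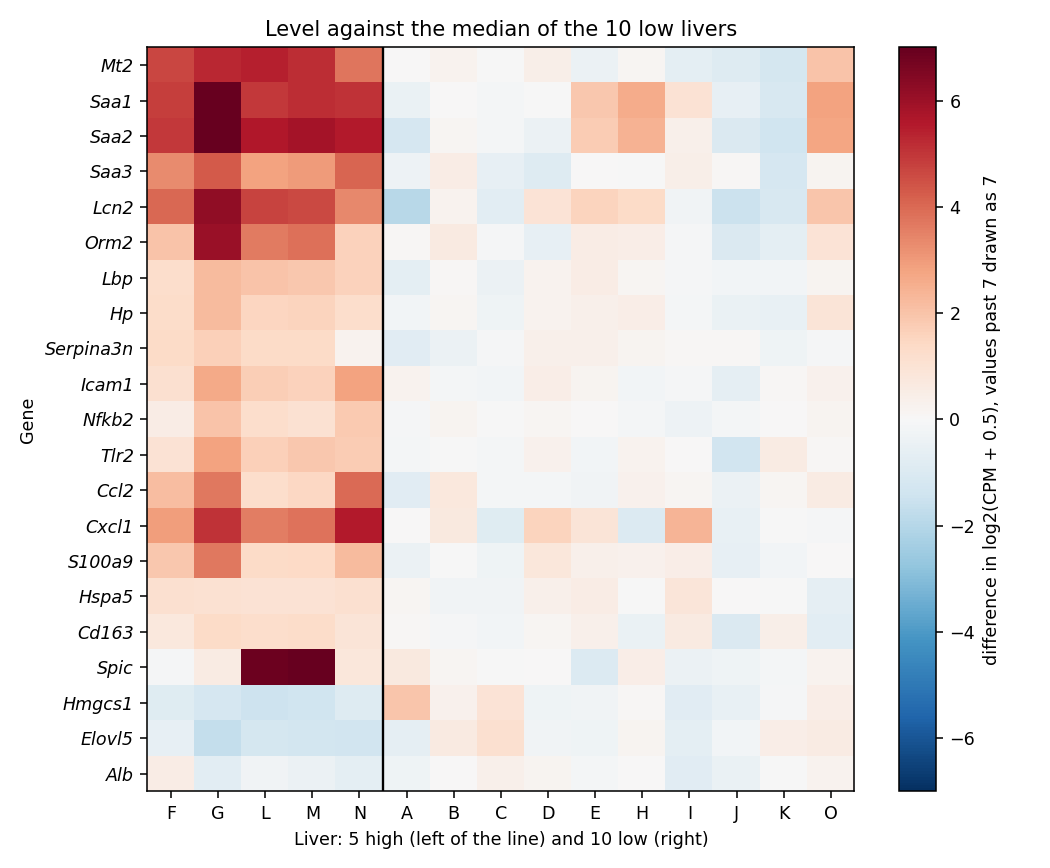
Levels of 21 genes in the 15 wildtype Western diet livers, as the difference in log2(CPM + a pseudocount of 0.5) from the median of the 10 low livers; columns are livers, with the 5 high livers left of the line, red is higher and blue lower. Saa1, Saa2 and Mt2 are red in all 5 high livers, Spic is strongly red in L and M alone, and Alb differs little between the groups.

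Plasma proteins that usually fall in the acute phase did not move as a list: of 15 tested members, 1 was higher (Trf, transferrin, 12362 to 21735 CPM against 9246 to 14661 CPM) and 1 lower (Ttr, transthyretin, 4619 to 5415 CPM against 5209 to 8023 CPM), with a median log2 fold change of 0.01. Alb did not pass the test, with 48142, 20505, 28917, 25361 and 21418 CPM in F, G, L, M and N and 20042 to 43999 CPM in the low livers (-0.19, SE 0.20). F had more Alb than any low liver. Of 22 tested genes of complement and coagulation outside the acute phase list, 9 were higher and 0 lower (median 0.32), among them C2, a protease of the classical complement pathway, at 72.9 to 103 CPM against 42.0 to 70.7 CPM (0.65, SE 0.13), and C8a, a subunit of the membrane attack complex (0.71, SE 0.15). With L and M summed 3 of the 9 were called.

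The cytokines above the response were scarce. Il6 and Osm, which encode ligands of the gp130 receptor family, did not pass the count filter, with Il6 at 0 to 0.0786 CPM in the high livers and 0 CPM in every low liver, and Osm at 0 to 0.188 and 0 to 0.191 CPM. Il1b was at 1.23, 4.88, 1.44, 0.933 and 0.550 CPM against 0.253 to 2.48 CPM and did not pass the test (0.53, SE 0.45). Without G its fold change was -0.28. These are levels in liver RNA, and protein in blood was not measured here.

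Further down the IL-6 pathway, 10 of 17 tested genes were higher and 0 lower (median 0.89). The IL-6 receptor gene Il6ra was at 69.3, 48.2, 53.3, 46.0 and 53.0 CPM against 13.3 to 32.9 CPM (1.44, SE 0.18), and the groups did not overlap. Stat3, the transcription factor that IL-6 activates, was at 157, 198, 204, 191 and 141 CPM against 63.4 to 143 CPM (1.01, SE 0.17), with N inside the low range. Cebpd, a C/EBP factor of the acute phase, was at 18.2 to 35.1 CPM against 6.70 to 19.1 CPM (1.17, SE 0.19), and Osmr, the oncostatin M receptor, at 4.87 to 9.22 against 2.65 to 4.97 CPM (0.89, SE 0.16). Socs3, the feedback inhibitor of STAT3, was at 20.1, 118, 145, 152 and 16.5 CPM against 4.30 to 74.0 CPM and did not pass by edgeR (1.97, SE 0.71, adjusted p = 0.129). It was high in G, L and M, while F and N lay within the low range. By limma voom it passed (log2 fold change 2.66, adjusted p = 0.0215). Without L and M, 4 of the 17 genes were called.

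Genes of IL-1, TNF and NF-kB signalling were higher in 13 of 22 tested members and lower in 0 (median 0.65). Of the receptors, Il1r1, for IL-1, was at 94.6 to 135 CPM against 21.1 to 63.9 CPM (1.49, SE 0.20), and Tlr2, for bacterial lipopeptides, at 4.32, 16.5, 6.95, 8.26 and 7.62 CPM against 0.442 to 3.10 CPM (2.19, SE 0.30). Both were separate between the groups. Their adaptor Myd88 was at 25.3 to 30.4 CPM against 18.1 to 21.5 CPM (0.48, SE 0.07), a small difference with no overlap. Nfkb2, which encodes the p100 precursor of the alternative NF-kB pathway, was at 21.6, 62.9, 35.7, 32.3 and 54.3 CPM against 11.6 to 17.4 CPM (1.46, SE 0.18). Of the NF-kB targets, Icam1, an adhesion molecule for leukocytes, was at 23.2, 68.3, 35.4, 31.8 and 75.5 CPM against 6.45 to 14.6 CPM (2.15, SE 0.24). Tnfaip3, the A20 inhibitor of NF-kB, was at 14.4, 32.2, 3.40, 5.17 and 98.9 CPM against 2.21 to 3.90 CPM (3.38, SE 0.59), so N had the most and L lay within the low range. Tnfaip3 did not pass by limma voom (log2 fold change 1.66, adjusted p = 0.113).

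Chemokines that draw neutrophils and monocytes followed, with 6 of 12 tested genes higher and 0 lower. Of 17 listed chemokines 5 did not pass the count filter. A gene can pass through the high livers alone, so no median is given and the count of calls is a description only. Cxcl1, a neutrophil attractant, was at 94.4, 414.6, 147, 176 and 585 CPM against 5.84 to 65.4 CPM (3.82, SE 0.59). Ccl2, a monocyte attractant, was at 4.71, 14.6, 2.27, 2.66 and 17.6 CPM against 0.182 to 1.47 CPM (3.47, SE 0.48). G and N had the highest levels of both. Cxcl14 had another order, 2.62, 35.9, 11.7, 12.6 and 2.59 CPM in F, G, L, M and N against 1.52 to 3.40 CPM (2.45, SE 0.47), with F and N within the low range. Tmc5, a membrane channel-like protein, was likewise at 4.38, 6.12 and 6.53 CPM in G, L and M and at 0.154 and 0.157 CPM in F and N, against 0 to 1.39 CPM. Its call was lost with L and M summed (edgeR, log2 fold change 3.42, adjusted p = 0.0997).

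**Figure D3:**
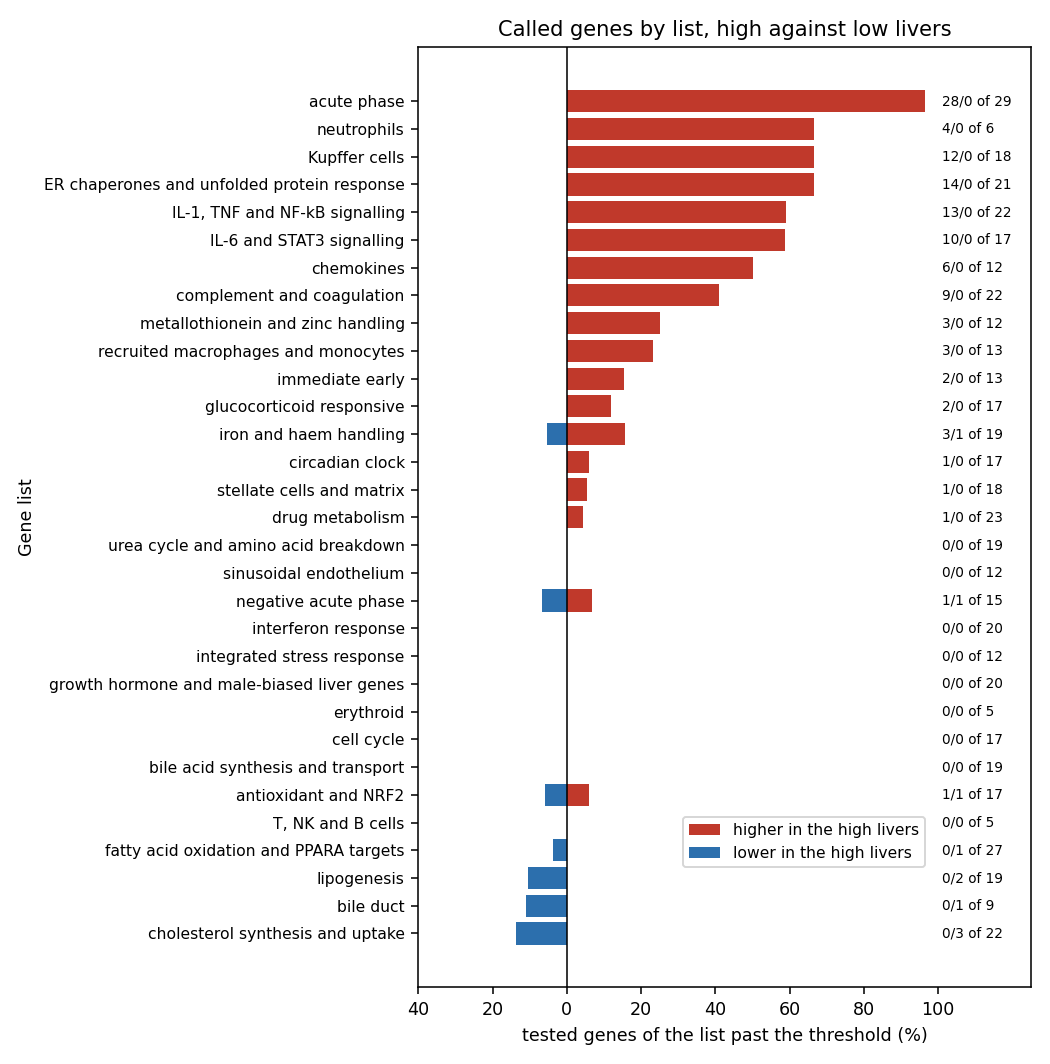
Share of the tested genes of each of 31 lists that were called higher (red, to the right) or lower (blue, to the left) in the 5 high livers against the 10 low livers, in percent; the figures at the right give higher and lower calls of the genes tested. The acute phase list stands at the top with 28 higher of 29, and the list of cholesterol synthesis and uptake at the bottom with 3 lower of 22. Neutrophil and chemokine genes can pass the count filter through the high livers alone, so their shares are descriptions only.

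Neutrophil transcripts were low in all wildtype Western diet livers but higher in the high than in the low ones. Of 20 markers, 6 passed the count filter, of which 4 were higher and 0 lower. A marker can pass the filter through the high livers alone, so no median is given and the count of calls is a description only. The sum of the 20 markers was 15.8 CPM in F, 57.6 in G, 16.8 in L, 16.7 in M and 16.2 in N, against 3.54 to 7.73 CPM in the low livers. In knockout Western diet livers the sum was 3.70 to 17.8 CPM, and in chow livers 4.45 to 36.5 CPM. The highest in each was liver E, with the most Mt1 (knockout E and wildtype chow E). Knockout F, at 17.3 CPM of Mt1, had 16.1 CPM, within the range of the high livers. Knockout H and G had 15.2 and 14.6 CPM, at 11.1 and 23.7 CPM of Mt1. Such sums were therefore not limited to livers with high Mt1. Ly6g, a defining marker of neutrophils, was at 0 in every low liver and at 0.125 CPM in G and 0.0755 CPM in L. Levels this near 0 do not separate the groups. S100a9, a subunit of the calcium-binding protein calprotectin, was at 2.32, 9.07, 1.44, 1.51 and 2.99 CPM against 0 to 0.796 CPM (3.50, SE 0.52), and its partner S100a8 at 0.790 to 5.94 CPM against 0.0606 to 0.908 CPM (2.68, SE 0.51). Prtn3, a protease of neutrophil granules, was at 1.85, 11.01, 5.97, 6.32 and 1.65 CPM against 0.253 to 1.67 CPM (2.71, SE 0.44). Elane, the elastase of the same granules, was at 0.309 to 0.864 CPM against 0 to 0.952 CPM and did not pass. In bulk liver RNA, more cells of a type and more RNA per cell cannot be told apart. The part of these cells in the other differences was not tested.

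Kupffer cell markers were higher in 12 of 18 tested genes and lower in 0 (median 0.81). Their sum was 709 CPM in F, 1097 in G, 1034 in L, 1101 in M and 844 in N, against 377 to 920 CPM in the low livers, so F and N lay within the low range. The 920 CPM was in low liver A, and without A the highest low sum was 839 CPM, below N. Cd163 itself was at 10.0, 15.8, 14.4, 14.9 and 11.5 CPM against 2.59 to 9.31 CPM (1.21, SE 0.23). Timd4, a phosphatidylserine receptor of resident macrophages, was at 4.38 to 7.01 CPM against 1.45 to 4.31 CPM (0.92, SE 0.19), and Csf1r, the receptor for macrophage growth factor, at 39.5 to 67.5 against 13.4 to 34.3 CPM (0.79, SE 0.16). These 3 genes were among 6 of the 18 that did not overlap between the groups, beside 1.01% of all tested genes. With L and M summed 5 markers were called and without them 1, while the median log2 fold change was 0.83 and 0.85 and 16 of 18 were positive each time. Knockout E, the knockout liver with the most Mt1, had a Kupffer sum of 604 CPM against 487 to 1041 CPM in the other knockout Western diet livers. Wildtype chow E and A had 747 and 623 CPM against 663 to 952 CPM in the other chow livers. Slopes on Mt1 were positive in 13 of 17 tested markers in knockout and 14 of 18 in chow livers, with 0 calls. Of 17 listed markers of recruited macrophages and monocytes, 13 were tested. Of these 3 were higher, among them Cd68 (0.73, SE 0.16), 0 were lower, and 7 had a positive fold change. The sum of this list was 129 to 239 CPM against 86.0 to 191 CPM, with overlap. Markers of T, NK and B cells, red blood cells and sinusoidal endothelium had 0 calls in either direction among 5, 5 and 12 tested genes.

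Spic, a transcription factor of red pulp macrophages and Kupffer cells, had the largest fold change (6.15, SE 1.09) but rested on the near copies. It was at 174 CPM in L and 197 CPM in M, and at 0.926, 1.75 and 2.04 CPM in F, G and N against 0.278 to 1.94 CPM in the low livers. Without L and M its log2 fold change was 0.59 (edgeR, adjusted p = 0.591). Outside this group, wildtype chow B, C and D had 190, 290 and 98.2 CPM, and all knockout Western diet livers had at most 3.80 CPM. Wildtype chow A and E, the chow livers with the most Mt1, had at most 1.95 CPM, and F, G and N had high acute phase RNA at low Spic.

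**Figure D4:**
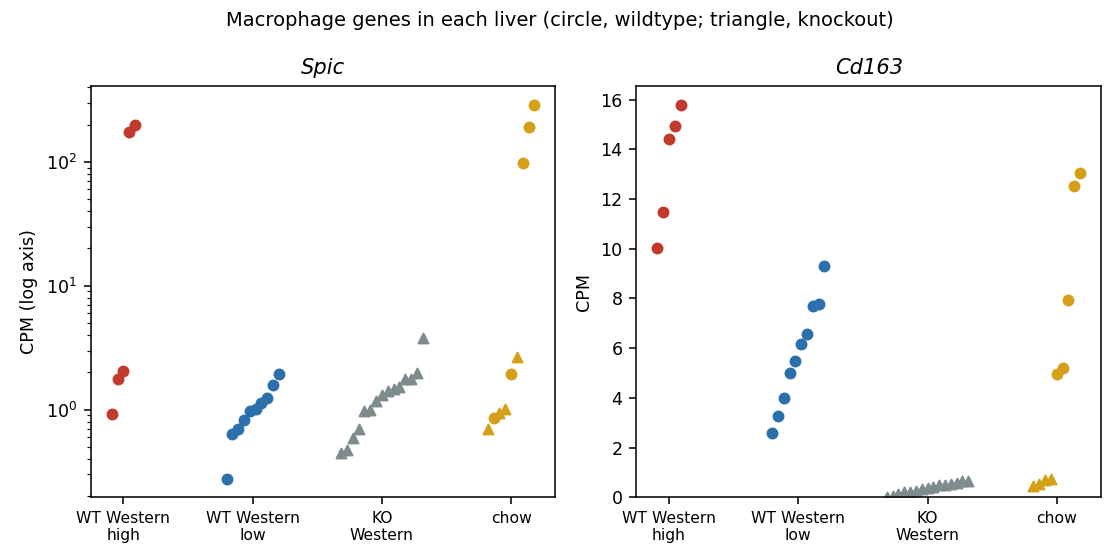
Spic (left, CPM on a log axis) and Cd163 (right, CPM) in each liver by group, with circles for wildtype and triangles for knockout mice. Spic is at 174 and 197 CPM in L and M and at most 2.04 CPM in F, G and N, while Cd163 lies between 10.0 and 15.8 CPM in all 5, above the 10 low livers.

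ER chaperones, which fold secreted proteins, were higher in 14 of 21 tested genes and lower in 0 (median 0.62). Hspa5, the central chaperone BiP, was at 2591, 2490, 2356, 2373 and 2590 CPM in F, G, L, M and N against 743 to 2094 CPM (0.95, SE 0.17). Hsp90b1, which encodes GRP94, was at 1723 to 2099 against 779 to 1625 CPM (0.82, SE 0.14), and Pdia4, a disulfide isomerase, at 641 to 727 against 254 to 550 CPM (0.91, SE 0.14). The high livers lay close together here, unlike for Saa1 or Orm2, and their sums over the list were 12770 to 13754 CPM against 5752 to 11646 CPM. The genes of the integrated stress response had 0 calls among 12 tested. With L and M summed 11 chaperone genes were called, and without them 5.

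Iron genes did not move as 1 group, with 3 higher and 1 lower of 19 tested (median -0.11). Hmox1, which breaks down haem, was at 26.4, 58.3, 28.6, 32.3 and 30.1 CPM against 7.90 to 21.3 CPM (1.13, SE 0.23). Hamp, which encodes hepcidin, the hormone that blocks iron export, was at 267, 166, 509, 459 and 204 CPM against 84.4 to 1335 CPM and did not pass (-0.11, SE 0.58). Its copy Hamp2 was at 1.89 to 4.09 CPM against 3.17 to 21.3 CPM (-1.80, SE 0.47), with overlap.

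The lower genes were fewer and less steady. Of 22 tested genes of cholesterol synthesis and uptake, 3 were lower and 0 higher (median -0.76), and all 5 high livers were below all 10 low livers in 2, beside 0.508% of all tested genes. The fold change was positive in 0 of the 22. Slopes on Mt1 were positive in 4 of 22 in knockout Western diet and 5 of 22 in chow livers, with 0 calls. Hmgcs1 was at 98.6, 77.8, 66.3, 68.2 and 94.6 CPM against 104 to 699 CPM (-1.56, SE 0.43), so all 5 high livers lay below the low livers. Sc5d, an enzyme late in the pathway, was at 324, 305, 257, 250 and 255 CPM against 320 to 731 CPM (-0.77, SE 0.16), with F inside the low range. Without low liver A, 7 of the 22 were lower. Of 19 tested lipogenic genes, 2 were lower, Elovl5 and Fads2, which elongate and desaturate fatty acids, and 0 higher (median -0.79). Of the 19, 3 had a positive fold change. Elovl5 was at 697, 315, 436, 422.3 and 400 CPM against 637 to 2231 CPM (-1.38, SE 0.30), with F within the low range. Fasn, fatty acid synthase, had values of 739 to 1115 CPM against 836 to 6310 CPM and did not pass. Summing L and M ended the calls of 12 named genes and leaving both out ended 29. Among the latter, Spic was at 0.59 without L and M, far below its value with both kept. The fold changes of Hmgcs1 and Elovl5 moved little with L and M summed. Hmgcs1 was then at -1.50 (adjusted p = 0.124 by edgeR) and Elovl5 at -1.36 (adjusted p = 0.0514). The list medians were then -0.75 for cholesterol genes, with 1 call, and -0.79 for lipogenic genes, with 0 calls. DESeq2 called 10 cholesterol and 7 lipogenic genes lower.

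Other large falls were in genes of low level. Gngt1, a subunit of the G protein of rod photoreceptors, was at 0.287 to 0.772 CPM against 0.736 to 4.13 CPM (-2.39, SE 0.43), and Pde4d, a phosphodiesterase that breaks down cyclic AMP, at 0.359 to 1.39 CPM against 1.16 to 3.98 CPM (-1.81, SE 0.38). Both overlapped between the groups. Krt23, a keratin, was the 1 lower gene of 9 tested on the bile duct list, at 0.287 to 2.62 CPM against 1.21 to 11.5 CPM (-2.37, SE 0.66). Of 27 tested genes of fatty acid oxidation and PPARA targets, 1 was lower, Fabp1, the liver fatty acid binding protein, at 1721 to 3673 CPM against 3452 to 5919 CPM (-0.74, SE 0.17), and 0 were higher. Over all tested genes 1.86% were lower, so 1 call on either list says little about that list. The fold change was positive in 3 of the 27 (median -0.27). The count of lower genes on this list was 13 by limma voom, 6 by DESeq2, 4 without low liver A and 0 with L and M summed.

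Few genes of the stress and hormone lists were called. Of 17 tested glucocorticoid responsive genes, 12 had a positive fold change (median 0.52). The summed level was 7137 to 9310 CPM in the high livers against 4380 to 7108 CPM in the low ones, with a narrow gap. In livers outside this group it reached as high: 4416 to 8006 CPM in knockout Western diet and 5176 to 12338.5 CPM in chow livers. The highest there were knockout Western diet H and wildtype chow B, at 11.1 and 8.91 CPM of Mt1. By edgeR 2 were higher and 0 lower, and by DESeq2 6 were higher and 1 lower. The 2 by edgeR were Pck1, which commits carbon to glucose synthesis, at 2037 to 3049 CPM against 533 to 1715 CPM (1.21, SE 0.22), and Gadd45b, a stress-induced gene, at 0.378 to 6.21 against 0.463 to 1.27 CPM (1.86, SE 0.45). Of 13 tested immediate early genes, 2 were higher and 0 lower: Junb, an AP-1 factor, at 91.5 to 287 CPM against 24.3 to 110 CPM (1.78, SE 0.33), and Fosl2, another AP-1 factor, at 22.0 to 30.5 against 10.3 to 19.9 CPM (0.79, SE 0.13). Pck1 and Fosl2 were separate between the groups, and Gadd45b and Junb overlapped. The lists of interferon response (20 tested), cell cycle (17), urea cycle and amino acid breakdown (19), growth hormone and male-biased genes (20) and bile acid genes (19) had 0 calls.

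The second comparison asks whether genes followed Mt1 in livers that took no part in the division. In the 15 knockout Western diet livers, with the log2 level of Mt1 as a numeric term, edgeR called 6 of 15093 tested genes (0.0398%) as rising with Mt1 and 0 (0%) as falling, with 637 at an unadjusted p under 0.05. DESeq2 called 21 rising and 0 falling. The 6 were Gm45774, Mt2, Nfkb2, Tlr2, Zc3h12a, which encodes the RNase regnase-1, and Alpk1, a kinase that senses bacterial sugars. Mt2 rose by 1.19 log2 units per doubling of Mt1 (SE 0.12, adjusted p = 1.43e-04), Nfkb2 by 0.40 (SE 0.05, adjusted p = 0.00155) and Tlr2 by 0.79 (SE 0.12, adjusted p = 0.0236). All 6 were also called higher in the high wildtype livers. The calls rest on knockout E, the liver with the most Mt1: without it 0 genes were called, and without B 16 were. Knockout E had 25.3 CPM of Mt2 against at most 2.29 CPM in the other 14, 58.8 CPM of Nfkb2 against at most 31.4, and 41.7 CPM of Tlr2 against at most 7.05.

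The acute phase list had 0 calls among 29 tested genes in the knockout livers, with a positive slope in 28 and a median slope of 0.17. Knockout E was the highest of the 15 in 25 of the 29. Its acute phase sum was 61854 CPM, within the range of the high wildtype livers, and the other 14 held 21566 to 41947 CPM. Saa1, for instance, was at 1615 CPM in E and at 37.0 to 1089 CPM in the others, with a slope of 0.25 (SE 0.23, adjusted p = 0.998 by edgeR). Without E, 12 of the 29 slopes were positive and the median was -0.01. Of the 520 genes higher in the high wildtype livers, 439 of 518 measured (84.7%) had a positive slope in the knockouts, against 51.4% of all tested genes. Without E the share was 57.4% against 47.7%. The genes lower in the high wildtype livers had a positive slope in 22.5%, and in 47.6% without E. Chaperones had a median slope of 0.01 in the knockouts, with 13 of 21 positive and 0 calls. Without E, 1 of the 21 slopes was positive and the median was -0.19. The highest chaperone sum, 14248 CPM, was in B, the knockout liver with the least Mt1, at 1.40 CPM.

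The 9 chow livers, with genotype as a covariate, gave 4 rising genes of 14881 tested (0.0269%) and 0 (0%) falling by edgeR, with 822 at an unadjusted p under 0.05. DESeq2 called 47 rising and 14 falling. The 4 were Prtn3 (slope 1.55, SE 0.15, adjusted p = 0.00299), Icam1 (0.69, SE 0.08, adjusted p = 0.0133), Csf1, a growth factor for macrophages (0.46, SE 0.06, adjusted p = 0.0305), and Ccl2 (1.48, SE 0.19, adjusted p = 0.0341). They too were all higher in the high wildtype Western diet livers. Wildtype chow E and A had 18.4 and 13.7 CPM of Ccl2 and 42.7 and 32.9 CPM of Icam1, against at most 3.81 and 19.7 CPM in the other 7. Without E, or without E and A, 0 genes were called, without wildtype chow B 1, and without D 2. The acute phase genes had a positive slope in 29 of 29 (median 0.35) with 0 calls, and a sum of 67355 CPM in wildtype chow E and 44768 CPM in A against 19878 to 29748 CPM in the other 7. Of the 520 genes, 448 of 519 measured (86.3%) had a positive slope, against 50.6% of all genes, and without E and A 70.7% against 52.2%. The sums of knockout E and of wildtype chow E and A lay within the range of the 5 high livers. Wildtype chow A is 1 of the 4 libraries with Hmgcs1 like that of the other diet. Hmgcs1 was also lower in the high wildtype livers, and whether the chow label of A is right was not tested. Knockout A, H and B, with sums of 41947, 39590 and 38640 CPM, also lay above every low wildtype liver, at 5.74, 11.1 and 1.40 CPM of Mt1.

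**Figure D5:**
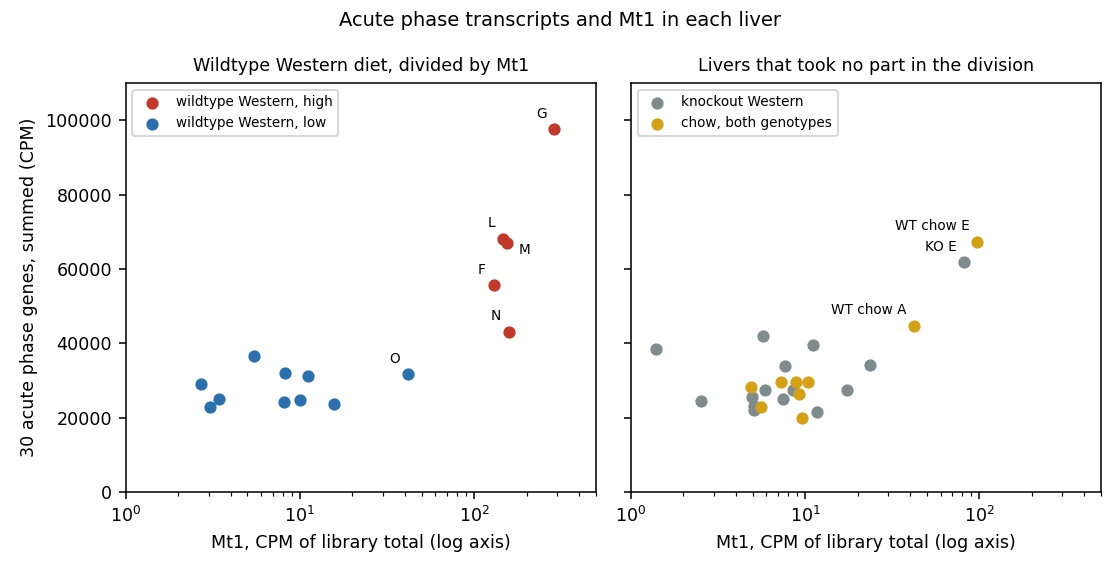
Summed level of the 30 acute phase genes (CPM) against Mt1 (CPM of the library total, log axis) in each liver, with the 15 wildtype Western diet livers at the left and the 24 livers that took no part in the division at the right. Knockout E, wildtype chow E and wildtype chow A, the 3 livers with the most Mt1 at the right, have the highest sums there, at 61854, 67355 and 44768 CPM.

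Whether genes followed Mt1 differently in the 2 genotypes on Western diet was tested by an interaction over the 30 libraries. Of 15693 tested genes, 0 had a steeper and 0 a less steep slope in knockout mice at an adjusted p under 0.05 (edgeR), with 530 at an unadjusted p under 0.05. Mt2 had a slope of 1.26 in wildtype and 1.19 in knockout mice (difference -0.02 in the joint fit, SE 0.18). Saa1 had 0.91 and 0.25 (difference -0.66, SE 0.27, adjusted p = 1.00), and Tlr2 0.43 and 0.79 (difference 0.36, SE 0.15, adjusted p = 1.00). The knockout calls rest on liver E, and the interaction was not fitted without it. The wildtype slopes include L and M as separate mice. The absence of calls does not show that the slopes are alike.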

How the data were processed

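RNA was sequenced from 39 snap-frozen mouse livers, labelled as 1 library per mouse. The deposited values are unnormalised gene counts for 55416 identifiers, which the authors made with STAR 2.7.8a and featureCounts 2.0 on GRCm39, per the submitters' processing notes. The annotation release and strand setting are not given in the sources used here. Symbols were matched for 52083 identifiers, which hold 99.4% of counts.

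The livers were divided by Mt1 (over 100 CPM of the library total), and Mt1 was left out of the genes tested. The members, gene lists (31 lists, 582 genes) and rule for named genes were chosen with earlier results of these data known. Genes were kept by filterByExpr (minimum count 10, minimum total 15), scaled by TMM factors over all 39 libraries and tested with the quasi-likelihood test of edgeR 4.0.16 in R 4.3.3, robust, with Benjamini-Hochberg adjustment at 0.05. In knockout Western diet and chow livers the term was log2 CPM of Mt1 with a prior count of 2. The interaction test and leaving out wildtype chow A and E were added after seeing the data. Alternatives were DESeq2 1.42.0, limma 3.58.1 (voom with quality weights), RLE factors, no filter, covariates and libraries left out or summed. Scripts were tested on simulated data.

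Named genes were the 12 largest rises and 12 largest falls with a mean of at least 1 CPM, the 4 smallest p of each list with at least 3 calls, a fixed set of acute phase, cytokine and cell marker genes, and the 6 smallest p in each other fit. Further list members are named where a count of 5 or fewer needs them, or as a check, after their values were seen. Library totals were 8578865 to 30438808 counts, and genes of few counts are the least precise. P-values measure the spread between these libraries, with the near copies L and M of the wildtype group entered as separate mice. Some members of the lists are counted but not reported here by name.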

Additional observations from a re-analysis of the deposited data

Results flagged for a closer look

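In 9 of 136 groups of values of named genes, 1 liver lay far from the rest of its group (Dixon's 95% critical value), where chance flags about 1 in 20 groups. Among the high livers, G stood above the others for Saa1 (9306 CPM against 2083 to 2697), Csf1r (67.5 against 39.5 to 43.9) and Hmox1 (58.3 against 26.4 to 32.3 CPM). F stood above them for Pde4d (1.39 against 0.359 to 0.529 CPM), and N below them for Serpina3n (362 against 761 to 963 CPM). Among the low livers, J was far below the rest for Tlr2 (0.442 against 1.58 to 3.10 CPM), Csf1r (13.4 against 25.0 to 34.3 CPM) and Cd44, an adhesion receptor (2.40 against 4.91 to 9.15 CPM). H was above them for Osm (0.191 against 0 to 0.0606 CPM).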

How the results depend on the processing

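No paired analysis was possible because the high and low livers lie within 1 group and share no replicate letters, so no replicate block could be fitted. Of 1766 alternative values for 68 named genes, 1541 kept the direction and side of the threshold. The 520 higher genes became 1276 by limma voom, 262 with L and M summed, 277 with A also left out, 137 without L and M, 241 with Mt1 as a numeric term, 231 with library number as a covariate, and 195 to 614 with 1 library left out. The 267 lower genes became 554 by DESeq2, 1017 by voom, 82, 92, 10, 37 and 86 in the same order of the other settings, 141 with log2 library total as a covariate, and 62 to 4.2e+02 (the upper value rounded to 2 digits) with 1 library left out. Genes rising with Mt1 in knockout livers (6) became 21 by DESeq2, 1 by voom and 0 to 16 with 1 library left out, and falling genes (0) became 1 without the count filter and stayed at 0 with 1 library left out. In chow livers, rising genes (4) became 47 by DESeq2, 2 by voom, 33 without the filter, 13 without wildtype chow A and knockout chow D, 0 without wildtype chow A and E, and 0 to 6 with 1 library left out. Falling genes there (0) became 14, 2 and 1 by DESeq2, without the filter and without wildtype chow A and knockout chow D. Hamp changed sign, to 0.66 by voom, 0.43 without A, 0.24 with L and M also summed and 0.50 with library number, and ran from -0.34 to 0.43 with 1 library left out. Il1b ran from -0.28 to 0.76 with 1 library left out. The cause of these changes was not tested. Depth limits genes under the count filter, such as Il6 and Osm.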
